A study of Mus musculus with 24 samples.

Results

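The RNA levels of 44 mouse genes that act on cisplatin damage were read in 24 tumors of 8 BURP lines, 3 tumors per line. The 44 genes were taken by symbol from the 53465 genes of the count table, and all 44 were found and passed the filter on low counts in each comparison. By role they were 10 genes of homologous recombination, 7 of break sensing and the checkpoint, 11 of the Fanconi anemia pathway, 11 of nucleotide excision repair, 3 of translesion synthesis and 2 of mismatch repair. BURP lines are subcutaneous mouse tumor lines that began as bladder tumors of C57BL/6NTac mice given 0.1% of the carcinogen BBN in their water from 8 weeks of age, for up to 36 weeks. All groups share this carcinogen and this strain, and no engineered allele is named for any line. Each line descends from the tumor of 1 donor mouse and was passaged under the skin of hosts of the donor's sex, so that its 3 tumors repeat a line and not a subtype. The basal/squamous (BaSq) subtype has 3 lines of male donors (BURP-18BaSq, BURP-12BaSq, BURP-17BaSq) and 3 of female donors (BURP-24BaSq, BURP-21BaSq, BURP-25BaSq). The stroma-rich line BURP-16SR and the neuroendocrine-like line BURP-19NE are both from males. BURP-24BaSq and BURP-16SR are the lines that the study treated with cisplatin in mice. It is not stated whether any sequenced tumor came from a treated mouse, so the levels are described as those of the lines.

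Cisplatin binds purine bases of DNA and joins them within a strand or across both strands. Adducts within a strand are cut out by nucleotide excision repair, in which damage is recognized, the strands are opened and a short stretch is excised. Links across strands are handled by the Fanconi anemia proteins together with homologous recombination, while the kinases Atr, Atm, Chek1 and Chek2 slow the cell cycle. Translesion polymerases copy past lesions, and mismatch repair proteins can recognize platinum adducts.

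Total counts ran from 9295755 to 25370376 per tumor, and levels are given as CPM, the usual depth-scaled counts, after the trimmed mean of M-values (TMM) was applied. A count of 3, taken as the smallest level a library could show, corresponded to 0.106 to 1.34 CPM. The highest of these limits belonged to BURP-25BaSq replicate 2, in which 1 ribosomal RNA gene took 61.9% of the counts. BURP-25BaSq replicate 3 departed from its own line in some genes, for example with 27.2 CPM of Xrcc3 beside 9.22 and 7.61 CPM in the other BURP-25BaSq tumors. Its Brca2 and Ercc1 values, given below, lay near those of its own line. Ercc1 cannot place this tumor, since BURP-12BaSq, BURP-21BaSq and BURP-25BaSq overlapped in that gene. The likeness of BURP-25BaSq replicate 3 to other lines was not tested over all genes. Both libraries were kept as labelled, and counts with BURP-25BaSq reduced to its first tumor are given beside the counts that use the line. The 12 epithelial markers summed to line means between 10310 and 19957 CPM in the BaSq lines, 358 CPM in BURP-16SR and 170 CPM in BURP-19NE. They did not all move alike. Of 10 tested between BURP-24BaSq and BURP-16SR, 8 were higher in BURP-24BaSq and 2 were lower there (adjusted p under 0.05, edgeR). Against the BaSq lines, 8 of 11 tested were lower in BURP-16SR and 9 of 11 in BURP-19NE, with 0 higher in either. Upk2 and Upk3a had no count in BURP-16SR and BURP-19NE, nor had Dsg3 in the former and Epcam in the latter. In such bulk tumors, fewer cells of a type and less RNA per cell cannot be told apart.

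Of the 44 repair genes, 37 differed among the 8 lines in an edgeR quasi-likelihood F test with Benjamini-Hochberg adjustment over all genes, a share to be read against 76.7% of all 21384 genes tested. The repair genes had a smaller median range than all tested genes, which were not matched to them for level. The highest line mean exceeded the lowest by a median of 2.29-fold over the 44 genes and by 3.54-fold over all tested genes. The span ran from 1.18-fold for Pms2, a mismatch repair endonuclease subunit, to 8.31-fold for Ercc1, a subunit of the excision nuclease. Xrcc2, Fanca, Fancd2, Fance, Fancl, Xpa and Pms2 were the 7 members not called. With BURP-25BaSq reduced to its first tumor, 38 members were called. BURP-25BaSq held the highest line mean for 10 members, BURP-24BaSq for 8 and BURP-19NE for 7. BURP-16SR held the lowest for 14, and BURP-18BaSq and BURP-19NE for 7 each. Reducing BURP-25BaSq to its first tumor made the counts of highest means 16, 6 and 7, and left those of lowest means at 14, 7 and 7. The shares of all genes for which each line was highest or lowest were not computed.

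**Figure D1:**
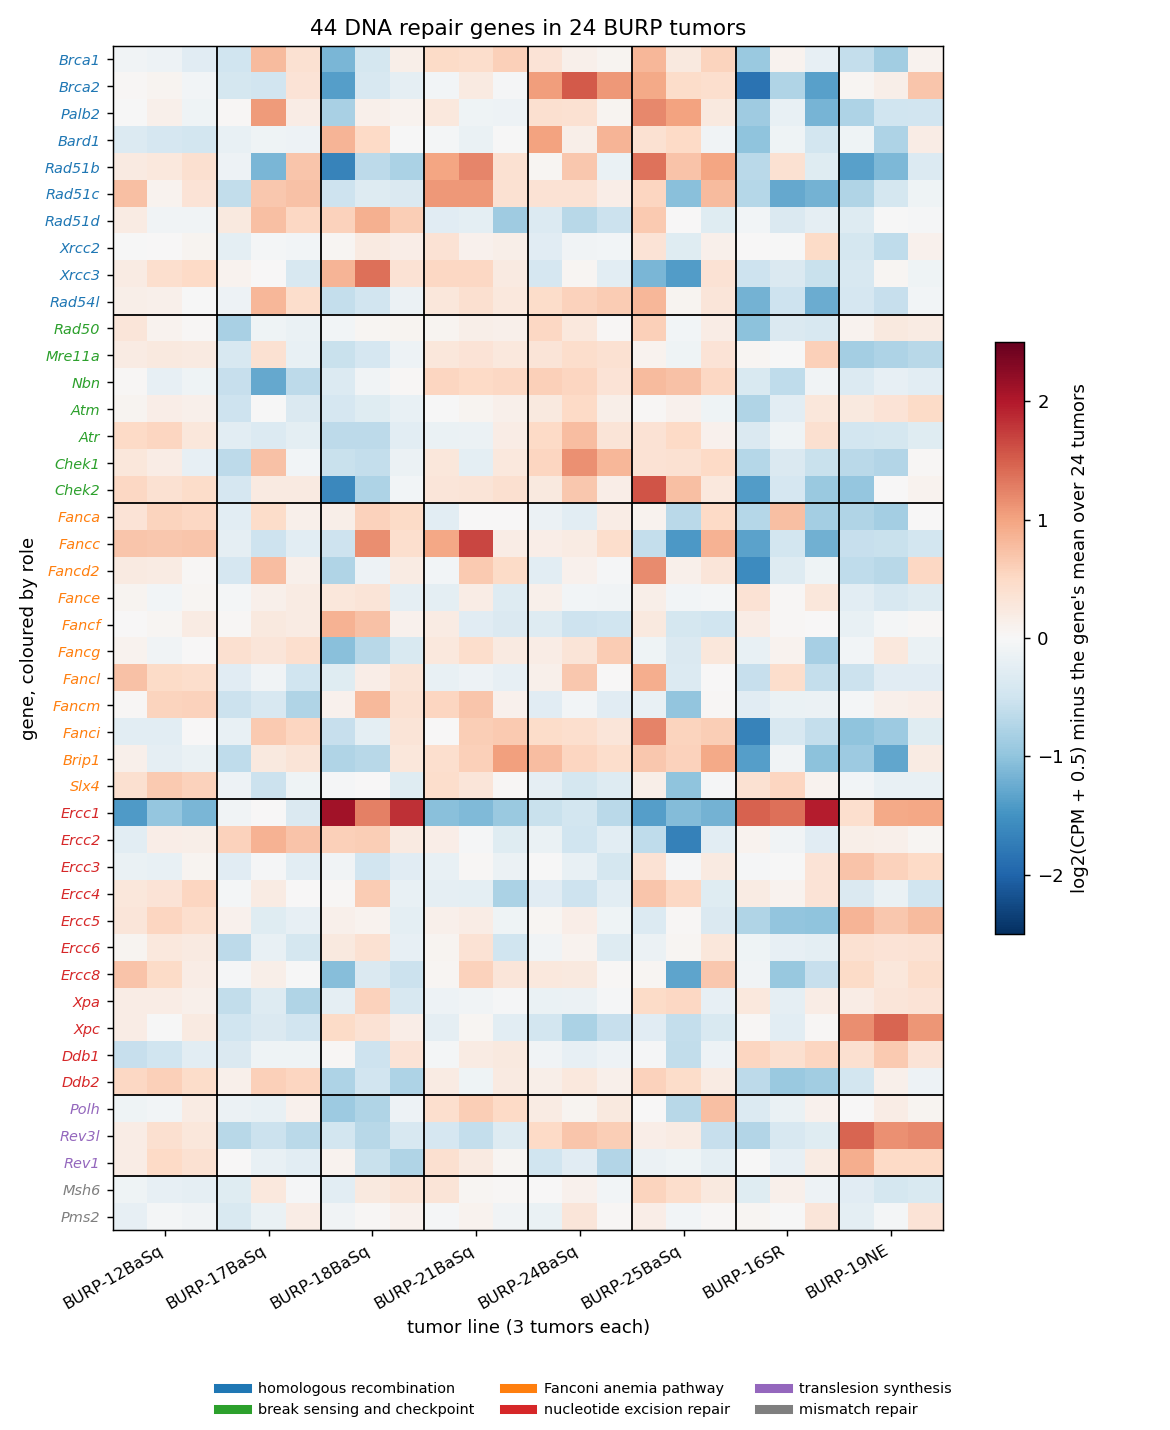
Each row is 1 of 44 repair genes and each column 1 of 24 tumors, with colour for log2(CPM + 0.5) minus the mean of the gene over all tumors. Ercc1 is red in BURP-18BaSq, BURP-16SR and BURP-19NE, many homologous recombination and Fanconi genes are blue in BURP-16SR, and Xpc, Ercc5 and Rev3l are red in BURP-19NE.

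Per kilobase of exon, averaged over the 8 line means, the levels of the members ran from 0.623 CPM per kb for Rad51c to 47.1 CPM per kb for Ddb1. Rad51c acts in homologous recombination, and Ddb1 is the adaptor of a Cul4 ubiquitin ligase that also serves outside repair. Msh6, of the mismatch recognition dimer, followed Ddb1 at 14.9 CPM per kb, then Rad50 at 10.5, Ercc1 at 10.2 and Ercc3 at 9.07 CPM per kb. At the low end, Rad51c rested on few reads, with 15, 9 and 11 counts in the BURP-16SR tumors and 2 counts in BURP-25BaSq replicate 2. Fancf, Fancg, Fancl and Ercc8 were the other members with fewer than 10 counts in a library, in each case BURP-25BaSq replicate 2.

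Ercc1 spanned the widest range of line means of the 44 genes (adjusted p = 8.94e-10 in the edgeR F test over the 8 lines). Its protein pairs with Ercc4 to form the nuclease that cuts damaged DNA in excision repair and at cross-links. The 3 tumors read 98.3, 54.7 and 80.8 CPM in BURP-18BaSq, 62.8, 58.7 and 89.4 CPM in BURP-16SR, and 30.3, 43.9 and 44.4 CPM in BURP-19NE. They read 21.1, 22.7 and 17.4 CPM in BURP-17BaSq, and 15.2, 16.2 and 13.9 CPM in BURP-24BaSq. The remaining lines were the lowest, at 10.6, 10.2 and 11.6 CPM in the BURP-21BaSq tumors, 8.09, 11.2 and 9.84 CPM in BURP-12BaSq and 8.28, 10.3 and 9.56 CPM in BURP-25BaSq. BURP-18BaSq and BURP-16SR overlapped each other, as did the 3 lowest lines, and all tumors of BURP-18BaSq, BURP-16SR and BURP-19NE lay above all tumors of the other 5 lines.

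Ercc1 lies on the plus strand at chr7:19344778-19356524 (GRCm38), and exon bases at its 3′ end are shared with Cd3eap on the opposite strand. The genes around it, looked at after the Ercc1 values were known, varied in their order of lines. Cd3eap had line means between 16.1 and 40.3 CPM with its highest in BURP-17BaSq, and Ercc2, a helicase subunit of TFIIH that lies beyond Ppp1r13l, had 9.93 to 28.4 CPM, also highest in BURP-17BaSq. Ppp1r13l itself had its lowest mean, 31.2 CPM, in BURP-16SR. On the other side, Rtn2 was highest in BURP-18BaSq like Ercc1, at 6.69 CPM, and Fosb had 103 CPM in BURP-16SR beside 134 CPM in its highest line, BURP-25BaSq. Within the shared bases, reads of Ercc1 and Cd3eap could be told apart only if strand was used in the counting, which is not stated.

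Brca2, a core gene of homologous recombination, had the next widest range, 5.82-fold (adjusted p = 5.17e-05 in the edgeR F test). Its 3 tumors read 54.0, 75.3 and 55.1 CPM in BURP-24BaSq, 50, 35.8 and 34.9 CPM in BURP-25BaSq, 26.9, 28.7 and 42.2 CPM in BURP-19NE, and 24.5, 30.2 and 25.4 CPM in BURP-21BaSq. They read 26.3, 27.2 and 24.6 CPM in BURP-12BaSq, 19, 18.4 and 33.0 CPM in BURP-17BaSq, 9.61, 19.4 and 22.2 CPM in BURP-18BaSq and 6.87, 15.1 and 9.72 CPM in BURP-16SR. BURP-24BaSq lay above every other tumor, and BURP-16SR overlapped BURP-18BaSq at the low end. Rad51c spanned 5.30-fold (adjusted p = 0.00363 in the same edgeR test). Its tumors read 5.60, 5.64 and 3.26 CPM in the BURP-21BaSq tumors, 4.38, 2.59 and 3.18 CPM in BURP-12BaSq, 1.38, 4.12 and 4.29 CPM in BURP-17BaSq and 3.21, 3.23 and 2.73 CPM in BURP-24BaSq. They read 3.70, 0.895 and 4.50 CPM in BURP-25BaSq, 1.51, 1.80 and 1.76 CPM in BURP-18BaSq, 1.22, 1.63 and 2.18 CPM in BURP-19NE and 1.27, 0.697 and 0.769 CPM in BURP-16SR. All Rad51c values of BURP-16SR were below those of BURP-24BaSq, BURP-12BaSq, BURP-21BaSq, BURP-17BaSq and BURP-18BaSq, and they overlapped BURP-19NE and BURP-25BaSq.

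Rad51b, also of homologous recombination, spanned 4.54-fold (adjusted p = 0.00192 in the edgeR F test). Its tumors read 17, 10.7 and 13.0 CPM in BURP-25BaSq, 13.1, 15.5 and 8.39 CPM in the BURP-21BaSq tumors, 7.5, 7.77 and 8.55 CPM in BURP-12BaSq and 6.62, 10.4 and 5.58 CPM in BURP-24BaSq. They read 5.75, 2.6 and 10.6 CPM in BURP-17BaSq, 3.81, 8.36 and 5.04 CPM in BURP-16SR, 2.19, 2.64 and 4.90 CPM in BURP-19NE and 1.65, 3.86 and 3.47 CPM in BURP-18BaSq. Both treated lines lay in the middle of this order and overlapped each other.

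Fancc, a subunit of the Fanconi anemia core complex that ubiquitinates Fancd2 and Fanci, spanned 4.14-fold (adjusted p = 0.00789 in the edgeR F test). Its tumors read 49.3, 81.4 and 28.5 CPM in the BURP-21BaSq tumors, 41.2, 40.6 and 41 CPM in BURP-12BaSq, 17.3, 56.5 and 33.8 CPM in BURP-18BaSq and 28.4, 28.8 and 34.3 CPM in BURP-24BaSq. They read 16.6, 8.95 and 46.0 CPM in BURP-25BaSq, 21.5, 17.5 and 20.8 CPM in BURP-17BaSq, 16.7, 16.9 and 18.2 CPM in BURP-19NE and 9.58, 18.1 and 10.7 CPM in BURP-16SR. The 46.0 CPM came from BURP-25BaSq replicate 3, and BURP-16SR overlapped the lower tumors of BURP-17BaSq, BURP-18BaSq, BURP-19NE and BURP-25BaSq.

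Chek2, the kinase activated by Atm at breaks, spanned 3.80-fold (adjusted p = 0.00382 in the edgeR F test), and 5.85-fold with BURP-25BaSq reduced to its first tumor. Its tumors read 31.5, 17.5 and 12.4 CPM in BURP-25BaSq, 14.9, 13.4 and 14.2 CPM in BURP-12BaSq, 12.2, 16.6 and 11.5 CPM in BURP-24BaSq and 12.7, 12.9 and 13.6 CPM in BURP-21BaSq. They read 7.55, 12 and 12.1 CPM in BURP-17BaSq, 5.01, 10.3 and 10.9 CPM in BURP-19NE, 3.02, 5.75 and 9.67 CPM in BURP-18BaSq and 3.56, 7.51 and 5.11 CPM in BURP-16SR. No tumor of BURP-16SR or BURP-18BaSq reached the lowest tumor of BURP-24BaSq, and both overlapped BURP-19NE.

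**Figure D2:**
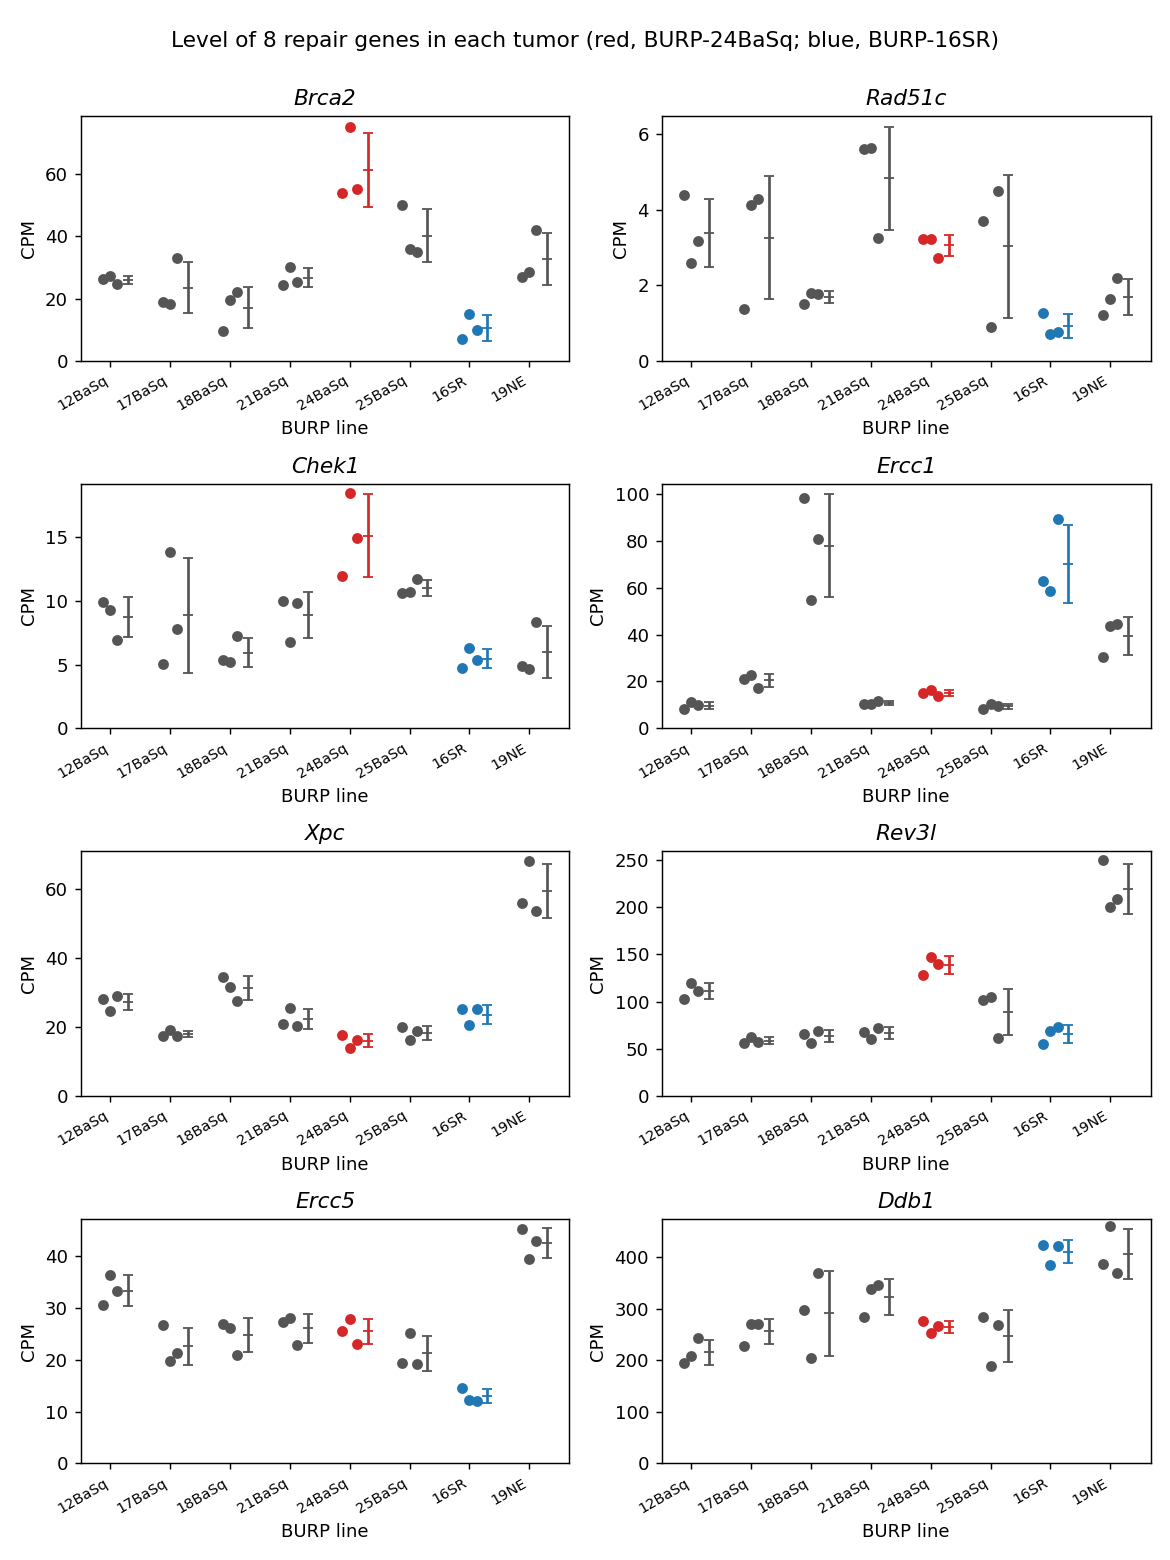
CPM of 8 repair genes (vertical axes, from 0) in the tumors of each BURP line (horizontal axes), with points for tumors and, to their right, the mean and SD of 3 tumors. Brca2 was highest in BURP-24BaSq (54.0 to 75.3 CPM), Ercc1 in BURP-18BaSq and BURP-16SR, and Xpc and Rev3l in BURP-19NE.

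The treated lines were placed within the range of the 6 lines not given cisplatin. In BURP-24BaSq, 30 of the 44 line means lay inside the range of the other 6 line means, 9 above it and 5 below it, beside 74.1%, 12.9% and 13.1% of all 21384 tested genes. The 9 above were Brca2, Bard1 and Rad54l of homologous recombination, Rad50, Mre11a, Atr and Chek1 of break sensing and the checkpoint, the Fanconi gene Fancg, and Pms2. The 5 below were Rad51d, Fancf, Slx4, Xpc and Rev1. In BURP-16SR, 27 members lay inside, 3 above and 14 below, beside 64.2%, 18.9% and 16.9% of all tested genes. The 14 below were Brca2, Palb2, Bard1, Rad51c, Rad54l, Rad50, Chek1, Chek2, Fancc, Fancd2, Fanci, Brip1, Ercc5 and Ddb2, and the 3 above were Fance, Ddb1 and Pms2. Brca2, Bard1, Rad54l, Rad50 and Chek1 were the 5 members above the range in BURP-24BaSq and below it in BURP-16SR. The share of all genes placed in this way was not computed. Reducing BURP-25BaSq to its first tumor left 6 members above and 5 below in BURP-24BaSq (11.9% and 11.8% of all tested genes), where Rad54l, Rad50 and Pms2 came inside. In BURP-16SR it left 2 above and 14 below (18.3% and 15.7%). Brca2, Bard1 and Chek1 were then the members above in BURP-24BaSq and below in BURP-16SR.

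A stricter criterion asked that all 3 tumors of a treated line lie beyond all 18 tumors of the other 6 lines. A gene that meets it also lies outside the range of line means, so the smaller counts follow from the criterion. Brca2 was the 1 member with all 3 BURP-24BaSq tumors above all 18 tumors of the other 6 lines, whose highest was 50 CPM, and no member lay below all 18, beside 2.12% and 1.41% of all tested genes. Ercc5, the nuclease that cuts on the far side of the lesion from Ercc1, was the 1 member with all 3 BURP-16SR tumors below all 18, at 14.5, 12.2 and 12.1 CPM against a lowest value of 19.2 CPM. No member had all BURP-16SR tumors above all 18, beside 4.07% of all tested genes above and 2.51% below. Against the 16 tumors left when BURP-25BaSq was reduced to its first tumor, Brca2 and Ercc5 were again the members outside.

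Set directly against each other, the treated lines differed in 19 of the 44 members, with Brca2, Rad51c, Rad54l and Chek1 the most raised in BURP-24BaSq and Ercc1 the most raised in BURP-16SR. In the edgeR quasi-likelihood test with Benjamini-Hochberg adjustment, 14 members were higher in BURP-24BaSq (17.6% of all 18286 tested genes were), 5 were lower (20.4%) and 25 were not called. Of these, 11 and 1 also passed 2-fold (13.2% and 15.8% of all genes). The tumors of the lines did not overlap for 25 members, beside 53.5% of all genes. The median log2 fold change was 0.38 over the members and -0.05 over all genes. By role, 4 of 10 homologous recombination genes rose and none fell, 4 of 7 break sensing and checkpoint genes rose and none fell, 3 of 11 Fanconi genes rose and 1 fell, 2 of 11 excision repair genes rose and 4 fell, and 1 of 3 translesion genes rose. Neither mismatch repair gene was called. BURP-24BaSq came from a female donor and BURP-16SR from a male, and their subtypes differ. Effects of line, subtype and sex therefore cannot be told apart in this comparison.

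The 8 largest increases held 3 homologous recombination genes. Brca2 was 5.59-fold higher in BURP-24BaSq, with the per-tumor values given above (log2 fold change 2.48, SE 0.32, adjusted p = 0.00155, edgeR). Rad51c was 3.21-fold higher (log2 1.68, SE 0.35, adjusted p = 0.0104, edgeR). Rad54l, a motor protein of strand exchange, read 23.7, 25.9 and 26.9 CPM in BURP-24BaSq and 7.29, 11.9 and 6.99 CPM in BURP-16SR, a log2 difference of 1.48 (SE 0.26, adjusted p = 0.00518, edgeR). For all 3 genes the lowest BURP-24BaSq tumor stood above the highest BURP-16SR tumor, and Brca2 had the widest gap. Bard1, the partner of Brca1, rose by 1.16 on the log2 scale, whereas Brca1 itself was not called (log2 0.42, 95% interval -0.21 to 1.05).

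Both checkpoint kinases were higher in BURP-24BaSq. Chek1, the effector of Atr when replication stalls, read 12, 18.5 and 14.9 CPM in BURP-24BaSq and 4.75, 6.27 and 5.39 CPM in BURP-16SR (log2 1.41, SE 0.25, adjusted p = 0.00532, edgeR). Chek2 differed by 1.26 on the log2 scale (SE 0.33, adjusted p = 0.0231, edgeR). For both kinases the 2 lines did not overlap. Rad50 and Nbn, subunits of the complex that senses breaks, rose by 0.80 and 0.82 on the log2 scale, while their partner Mre11a differed by 0.10 (95% interval -0.34 to 0.53). The upstream kinases Atr (log2 0.50, 95% interval -0.03 to 1.02) and Atm (0.45, -0.16 to 1.05) were not called.

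Among the Fanconi genes, Brip1, a helicase that binds Brca1, read 23.2, 19.5 and 18.4 CPM in BURP-24BaSq and 4.83, 12.6 and 6.30 CPM in BURP-16SR (log2 1.3, SE 0.37, adjusted p = 0.0326, edgeR). Fanci, which is ubiquitinated with Fancd2, read 16.2, 15.9 and 14.4 CPM against 3.31, 8.75 and 7.55 CPM (log2 1.19, SE 0.35, adjusted p = 0.0365, edgeR). Fancc differed by 1.19 on the log2 scale (SE 0.28, adjusted p = 0.0157, edgeR). The lines stood apart for all 3 genes, with the widest spread among the BURP-16SR tumors. The core complex genes Fanca, Fance, Fancf, Fancg and Fancl, the translocase gene Fancm and Fancd2 were not called, with log2 values from -0.64 for Fancf to 0.65 for Fancg. Rev3l, the catalytic subunit of the translesion polymerase zeta, also rose, at 129, 147 and 140 CPM against 54.5, 69.0 and 73.2 CPM (log2 1.02, SE 0.16, adjusted p = 0.00294, edgeR).

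The 5 members lower in BURP-24BaSq were Ercc1, Ercc4, Slx4, Ddb1 and Xpc. Ercc1 was 4.82-fold lower (log2 -2.27, SE 0.19, adjusted p = 0.000301, edgeR) and was the 1 member past 2-fold in this direction. Ercc4, its catalytic partner, read 14.0, 11.8 and 14.1 CPM in BURP-24BaSq and 19.9, 18.2 and 22.0 CPM in BURP-16SR (log2 -0.64, SE 0.17, adjusted p = 0.0250, edgeR). Slx4, the scaffold that holds this nuclease at cross-links, read 20.5, 17.6 and 19.2 CPM against 31.4, 35.2 and 25.5 CPM (log2 -0.74, SE 0.19, adjusted p = 0.0212, edgeR). The lines did not overlap for any of the 3 genes, and the gap was far wider for Ercc1 than for Ercc4 or Slx4.

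The recognition genes of excision repair were split. Ddb1 read 276, 253 and 266 CPM in BURP-24BaSq and 425, 385 and 422 CPM in BURP-16SR (log2 -0.69, SE 0.14, adjusted p = 0.0100, edgeR). Xpc, the sensor of distorted DNA, read 17.8, 14.0 and 16.3 CPM against 25.1, 20.5 and 25.2 CPM (log2 -0.61, SE 0.18, adjusted p = 0.0333, edgeR). Both genes were lower in every BURP-24BaSq tumor. Ddb2, which binds damage together with Ddb1, went the other way by 1.01 on the log2 scale, as did Ercc5 by 0.92. The helicase genes Ercc2 and Ercc3, the transcription-coupled repair genes Ercc6 and Ercc8, and Xpa were not called, with log2 values from -0.38 for Ercc3 to 0.67 for Ercc8.

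**Figure D3:**
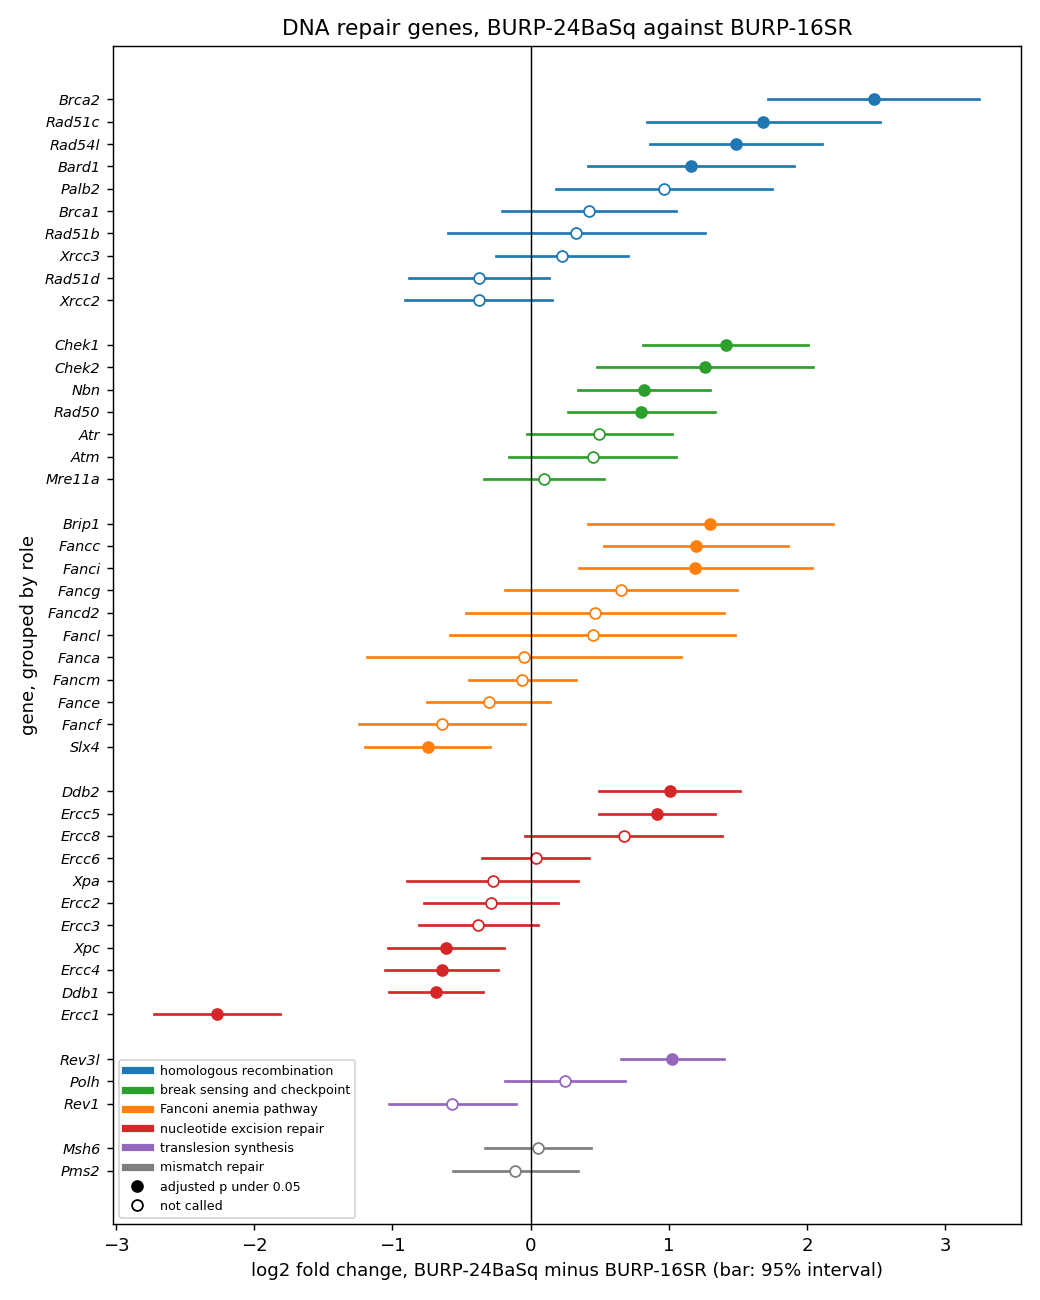
Log2 fold change between BURP-24BaSq and BURP-16SR (horizontal axis, positive where BURP-24BaSq is higher) for 44 repair genes (vertical axis, coloured by role), with 95% intervals and filled points for the 19 called members. Brca2 lies at 2.48 and Ercc1 at -2.27, and filled points of homologous recombination and the checkpoint all lie to the right of 0.

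Of the 19 calls, 9 held in every alternative fit that tested them: Brca2, Rad51c, Rad54l, Chek1, Ercc1, Ercc5, Ddb1, Ddb2 and Rev3l. Rad51c had too few reads to enter the fit with at least 10 counts in every tumor. The other 10 calls lost the threshold with the same direction when single tumors were left out. The count of higher members fell to 8 without BURP-24BaSq replicate 1 and to 9 without BURP-24BaSq replicate 2, BURP-24BaSq replicate 3 or BURP-16SR replicate 1. The count of lower members fell to 2 without any 1 of these 4 tumors and to 3 without BURP-16SR replicate 3.

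Markers of other kinds moved together with these differences. Of the 24 proliferation markers, 8 were higher in BURP-24BaSq and none was lower (median log2 0.69, range of the sum 1983 to 2158 CPM in BURP-24BaSq and 854 to 1637 CPM in BURP-16SR). All 6 endothelial markers and 5 of 10 fibroblast and stroma markers were lower in BURP-24BaSq, with stroma sums of 1591 to 2222 CPM against 5491 to 26765 CPM. Divided by the summed proliferation markers, 7 of the 14 higher members still did not overlap between the lines and 7 did. Brca2 was then 3.48 times as high in BURP-24BaSq and Chek1 1.56 times, while Rad50 and Nbn stood at ratios of 1.04 and 0.987. The division also put Brca1, Rad51d, Xrcc2, Fance, Fancf, Fancm, Ercc2, Ercc3, Xpa, Rev1 and Msh6, none of them called, wholly below in BURP-24BaSq. The share of all genes that stays apart after this division was not computed. For the 5 lower members this division can only widen the gap and is not informative. The part of proliferation and stroma in the differences was not tested further.

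**Figure D4:**
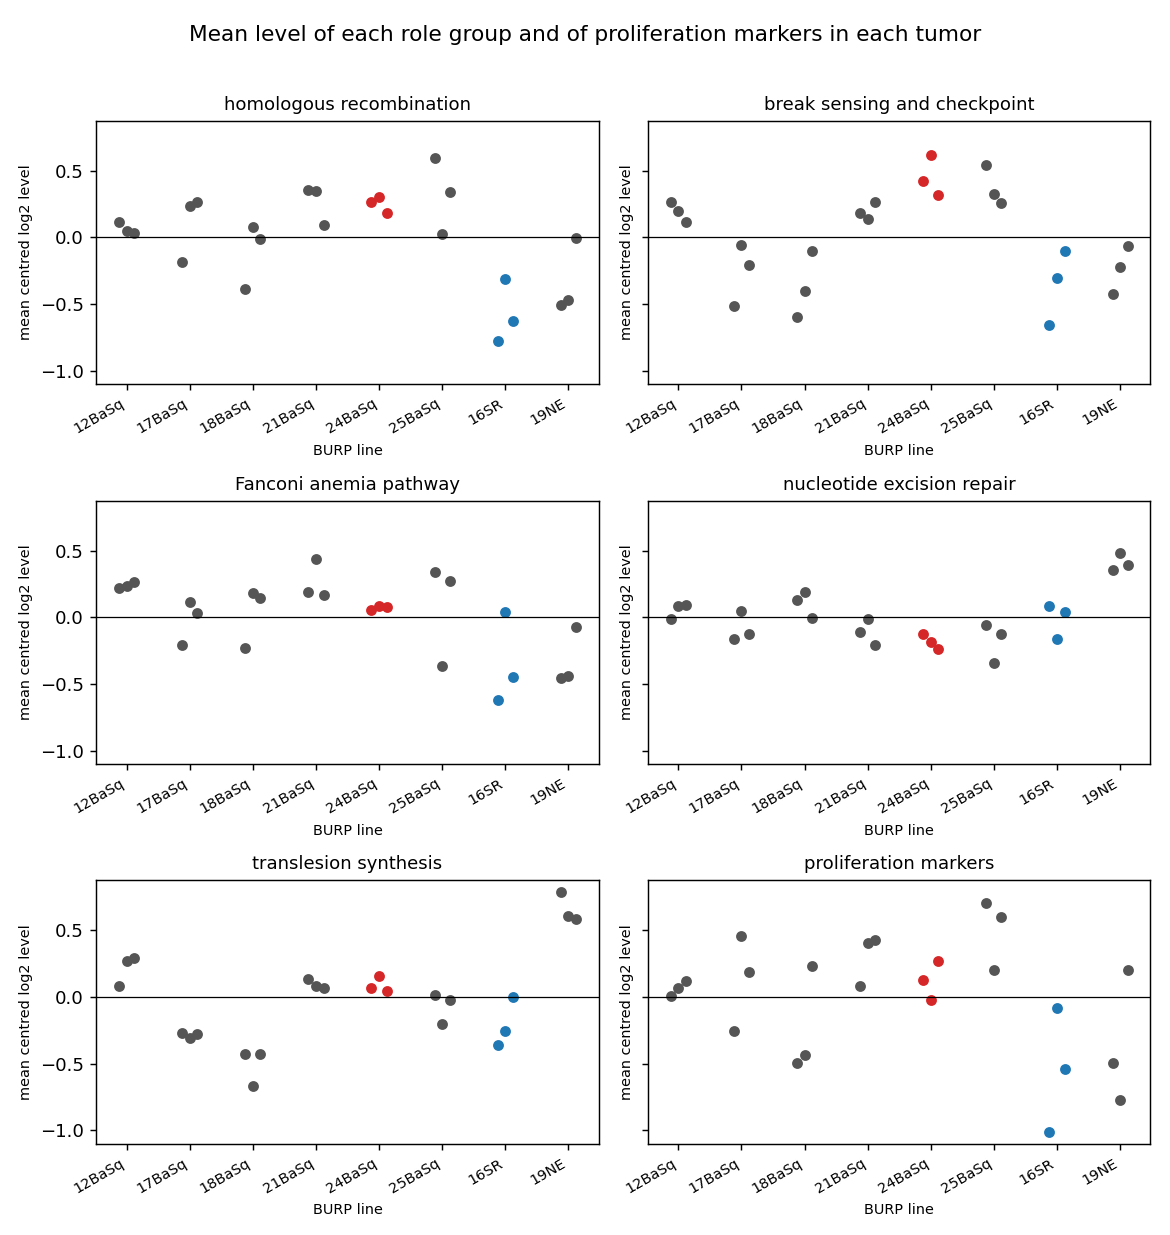
Mean centred log2 level (vertical axes) of 5 role groups of repair genes and of 24 proliferation markers in each tumor (points) of the 8 lines (horizontal axes). Homologous recombination and proliferation markers are both low in BURP-16SR, while nucleotide excision repair and translesion synthesis are highest in BURP-19NE.

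Among 55 further repair genes of the same pathways, 12 were higher in BURP-24BaSq and 6 lower, with a median log2 of 0.28. Rad54b, a relative of Rad54l, was higher by 1.31 and Usp1, which removes ubiquitin from Fancd2, by 1.02 on the log2 scale. Rad9a, of the checkpoint clamp, was lower by 1.25 and Mus81, a nuclease of cross-link repair, by 0.98 (log2 -1.25 and -0.98).

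Promoter windows were searched for letters bound by factors known from cell cycle genes, since proliferation markers moved with the members. For the E2F family the letters TTCCCGC were searched on both strands, as was the variant TTGGCGC. The variant written TTCGCGC and a further variant written TTGCCGC were searched in the same way. The RefSeq windows searched (GRCm38.p6, 250 bases before to 50 after a start) included 35 of the 44 members. Of these, 17 (48.6%) held at least 1 match, beside 9.57% of the 32851 windows searched. The search left out the chromosome of Ercc3 and so did not cover the whole genome. Whether Ercc3 has a window was therefore not examined. CCAAT was present in 22 of 35 (62.9%) beside 37.4%, and TTTGAA, the cell cycle homology letters, in 2 of 35 beside 17.9%. Of 20 proliferation markers with a window, 9 (45%) held E2F letters, 18 (90%) held CCAAT and 9 (45%) held the cell cycle homology letters. On the other strand, one of the E2F variants ends in the first letters of CCAAT, so that these matches can overlap. The windows of Ercc1, Brca2, Rad54l and Chek1 are shown, the 4 members with a window and the smallest adjusted p between the treated lines, 5′ to 3′ on the strand of the gene with E2F matches in capitals. A match describes the letters of the window and not a bound site.

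The Brca2 window is chr5:150522371-150522670 on the plus strand, with its match beginning at -168 from the start.
Brca2: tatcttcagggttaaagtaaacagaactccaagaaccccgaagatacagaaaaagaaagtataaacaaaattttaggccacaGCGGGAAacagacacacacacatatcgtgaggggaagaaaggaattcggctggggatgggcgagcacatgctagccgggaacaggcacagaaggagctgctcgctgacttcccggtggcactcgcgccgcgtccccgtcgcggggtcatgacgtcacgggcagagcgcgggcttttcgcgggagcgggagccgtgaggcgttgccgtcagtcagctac
The Rad54l window is chr4:116123641-116123940 on the minus strand, the window of 2 listed that lies nearest to the annotated start, and holds no E2F match.
Rad54l: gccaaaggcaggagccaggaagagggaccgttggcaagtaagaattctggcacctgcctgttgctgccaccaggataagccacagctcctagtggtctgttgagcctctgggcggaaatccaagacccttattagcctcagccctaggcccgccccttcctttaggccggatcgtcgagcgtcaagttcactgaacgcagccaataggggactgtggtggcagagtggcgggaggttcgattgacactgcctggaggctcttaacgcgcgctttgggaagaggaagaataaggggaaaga
The Chek1 window is chr9:36726609-36726908 on the minus strand, with its match beginning at 44 after the RefSeq start. This window lies wholly inside the annotated gene (chr9:36708482-36727065).
Chek1: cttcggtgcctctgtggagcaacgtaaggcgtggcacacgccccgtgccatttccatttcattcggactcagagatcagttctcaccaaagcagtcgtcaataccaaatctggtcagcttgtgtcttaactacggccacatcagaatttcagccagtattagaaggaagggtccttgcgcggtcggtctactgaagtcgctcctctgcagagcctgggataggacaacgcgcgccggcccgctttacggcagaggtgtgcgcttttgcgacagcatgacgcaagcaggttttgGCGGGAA
The Ercc1 window is chr7:19344821-19345120 on the plus strand, with its match beginning at -39 from the RefSeq start. This window too lies wholly inside the annotated gene (chr7:19344778-19356524).
Ercc1: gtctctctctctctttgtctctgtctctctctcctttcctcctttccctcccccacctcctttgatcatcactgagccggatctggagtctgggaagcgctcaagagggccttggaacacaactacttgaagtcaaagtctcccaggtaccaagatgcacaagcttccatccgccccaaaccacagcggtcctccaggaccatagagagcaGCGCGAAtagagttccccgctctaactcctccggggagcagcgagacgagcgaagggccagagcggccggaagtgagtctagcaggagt
Brca2 and Chek1, higher in BURP-24BaSq, and Ercc1, lower there, each held 1 match, and Rad54l, also higher, held none.

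Against all 18 BaSq tumors, BURP-16SR had 4 of 10 homologous recombination genes lower and Ddb1 higher. The edgeR quasi-likelihood test called 10 members lower (11.3% of 21017 tested genes) and 1 higher (13.8%), and the median log2 fold change was -0.29 over members and -0.03 over all genes. The lower members were Brca2, Palb2, Rad51c and Rad54l of homologous recombination, Rad50 and Chek2, Fancc and Fanci, and the excision repair genes Ercc5 and Ddb2. Their log2 values ran from -1.74 for Rad51c to -0.60 for Rad50. Ercc1, at 58.7 to 89.4 CPM in BURP-16SR against 8.09 to 98.3 CPM (median 12.8 CPM) in the BaSq tumors, had a log2 difference of 1.62 and was not called, with the BURP-18BaSq tumors overlapping those of BURP-16SR.

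Ercc5 and Ddb1 were the called members whose tumors did not overlap (11.4% of all genes did not). Ercc5 read 14.5, 12.2 and 12.1 CPM in BURP-16SR, while the 18 BaSq tumors had a lowest value of 19.2, a median of 25.8 and a highest value of 36.3 CPM (log2 -0.90, SE 0.18, adjusted p = 0.00100, edgeR). Ddb1 read 425, 385 and 422 CPM in BURP-16SR, and the BaSq tumors ran from 190 through a median of 269 to 370 CPM (log2 0.69, SE 0.17, adjusted p = 0.00518, edgeR). Both genes therefore stood wholly outside the BaSq range, on opposite sides. Reads of Ddb1 share bases with Tkfc on the opposite strand.

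Ercc5, Ddb1 and Rad54l kept their calls in every alternative, and the other 8 did not. The count of lower members fell to 4 without BURP-16SR replicate 1 and to 5 without BURP-16SR replicate 3, and the count of higher members rose to 2 without any 1 tumor of BURP-18BaSq. With BURP-25BaSq reduced to its first tumor the counts were 10 and 1. Of the 24 proliferation markers, 9 were lower in BURP-16SR and none was higher, with sums of 854 to 1637 CPM against 1276 to 3420 CPM in the BaSq tumors, and 6 of 10 fibroblast and stroma markers were higher. Their part in the result was not tested. Of the 55 further repair genes, 10 were lower and 5 higher, the latter led by the translesion polymerase gene Polk (log2 1.41) and Rad9a (1.10).

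In BURP-19NE, 4 of 11 excision repair genes and 2 of 3 translesion genes were higher than in the BaSq tumors. Over all members, however, the shares called higher, called lower or without overlap were each below those of all genes. The edgeR test called 6 members higher (15.5% of 21006 tested genes) and 4 lower (17.9%), and 6 members did not overlap (18% of all genes). The higher members were Xpc, Ercc5, Ercc3 and Ddb1 of excision repair and Rev3l and Rev1 of translesion synthesis, and the lower ones were Palb2, Mre11a, Fanci and Msh6. The median log2 was -0.33 over members and -0.14 over all genes.

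Xpc read 56.1, 68.4 and 53.8 CPM in BURP-19NE, and the BaSq tumors had a lowest value of 14.0, a median of 20.3 and a highest value of 34.5 CPM (log2 1.44, SE 0.20, adjusted p = 1.06e-05, edgeR). Rev3l read 250, 200 and 208 CPM against a lowest of 55.9, a median of 70.3 and a highest of 147 CPM (log2 1.34, SE 0.26, adjusted p = 0.000525, edgeR). For both genes the BURP-19NE values were far above the BaSq tumors, of which those of BURP-24BaSq were the highest for Rev3l and among the lowest for Xpc. Ercc5 read 45.3, 39.5 and 42.9 CPM against 19.2, 25.8 and 36.3 CPM as lowest, median and highest (log2 0.76, SE 0.16, adjusted p = 0.000889, edgeR). Ercc3, a helicase of TFIIH, read 41.4, 37.8 and 35.8 CPM against 17.8, 22.4 and 32.5 CPM (log2 0.74, SE 0.14, adjusted p = 0.000386, edgeR). These genes also stood clear of the BaSq tumors, by smaller steps.

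Rev1, the scaffold on which translesion polymerases assemble, read 40.2, 30.4 and 30.3 CPM in BURP-19NE, with a lowest of 12.5, a median of 19.5 and a highest of 30.2 CPM in the BaSq tumors (log2 0.75, SE 0.22, adjusted p = 0.0105, edgeR). Its groups were separated by the narrowest of margins, and the call was lost without BURP-19NE replicate 1 (log2 0.56, adjusted p = 0.143, edgeR). Mre11a, the nuclease of the break-sensing complex, read 18.6, 19.8 and 20.8 CPM against 23.1, 40.2 and 46.7 CPM as lowest, median and highest (log2 -0.89, SE 0.20, adjusted p = 0.00204, edgeR). It lay below every BaSq tumor. Ercc5 was thus the member below the BaSq range in BURP-16SR and above it in BURP-19NE, and Ddb1 was higher than the BaSq lines in each of these comparisons, which share the BaSq tumors.

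Xpc, Rev3l, Ercc5, Ercc3 and Mre11a kept their calls in every alternative, and the other 5 did not. The count of lower members was 1 without BURP-19NE replicate 1 or replicate 2 and 8 without BURP-18BaSq replicate 1. With BURP-25BaSq reduced to its first tumor, 6 members were higher and 4 lower. Proliferation markers were lower for 8 of 24 and higher for none, with sums of 1066 to 2070 CPM in BURP-19NE against 1276 to 3420 CPM, and their part was not tested. Of the 55 further repair genes, 11 were lower, 8 of them by more than 2-fold. Another 8 were higher, 1 of them by more than 2-fold. Cul4a and Cul4b, the ligase partners of Ddb1, were higher by 0.86 and 0.83 on the log2 scale, and Mad2l2, a partner of Rev3l, by 1.01.

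Compared with the 15 tumors of the other 5 BaSq lines, BURP-24BaSq differed in Brca2 alone of the 44 members. The edgeR test called 1 member higher (1.46% of 20523 tested genes) and 0 lower (1.15%), while DESeq2 called 3 higher and 0 lower. At an unadjusted p under 0.05, edgeR gave 6 members higher (7.91% of all genes) and 4 lower (10.2%). Brca2 read 54.0, 75.3 and 55.1 CPM, and the other BaSq tumors had a lowest value of 9.61, a median of 25.4 and a highest value of 50 CPM (log2 1.20, SE 0.28, adjusted p = 0.0243, edgeR). All 3 tumors stood above the others, of which the nearest was a BURP-25BaSq tumor. Rev3l did not overlap either (129 to 147 CPM against 55.9 to 120 CPM) but was not called (log2 0.83, adjusted p = 0.0539, edgeR), beside 4.51% of all genes without overlap.

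The Brca2 call was lost without any 1 of the BURP-24BaSq tumors, with adjusted p of 0.101 without replicate 1, 0.251 without replicate 2 and 0.0908 without replicate 3 in edgeR. A second member was called without BURP-12BaSq replicate 2 or 3, without BURP-25BaSq replicate 1 or 2, and with BURP-25BaSq reduced to its first tumor. Ercc1 in BURP-24BaSq (13.9 to 16.2 CPM) fell inside the range of the other BaSq tumors (8.09 to 98.3 CPM). Proliferation markers summed to 1983 to 2158 CPM in BURP-24BaSq, inside the 1276 to 3420 CPM of the other BaSq tumors, and none of the 24 was called.

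Between the 9 tumors of the male and the 9 of the female BaSq lines, 2 members were higher in males (2.99% of 17922 tested genes) and 3 lower (2.47%) in the edgeR test. Nbn and Brip1 were the members without overlap, beside 0.48% of all genes. Nbn, the signalling subunit of the break sensor, had a lowest, median and highest value of 5.29, 11.6 and 13.7 CPM in male and 17.2, 19.7 and 23.6 CPM in female lines (log2 -0.89, SE 0.16, adjusted p = 0.00710, edgeR). Brip1 had 7.69, 11.8 and 16.8 CPM in male and 18, 20.4 and 27.7 CPM in female lines (log2 -0.81, SE 0.17, adjusted p = 0.0132, edgeR). Every female tumor stood above every male tumor for both genes. Brca2 was also lower in males (log2 -0.94), while Ercc1 (log2 1.63) and Ercc2 (log2 0.80) were higher, with overlap.

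The 3 tumors of a line share a donor, so that sex rests on 3 lines against 3. With counts summed per line, edgeR called 0 members in either direction. At an unadjusted p under 0.05 it gave 1 higher (2.77% of all genes) and 4 lower (3.63%). The adjusted p was then 0.720 for Nbn, 0.616 for Brip1, 0.739 for Brca2, 0.773 for Ercc1 and 0.750 for Ercc2. The Ercc1 difference came down to 0.31 on the log2 scale without BURP-18BaSq, and the count of higher members went to 0 without BURP-18BaSq or BURP-24BaSq, 1 without BURP-21BaSq and 4 without BURP-12BaSq. The count of lower members was 6 without BURP-12BaSq or BURP-17BaSq, and 2 without BURP-18BaSq, BURP-24BaSq or BURP-25BaSq. With BURP-25BaSq reduced to its first tumor, 1 member was higher and 3 were lower. Proliferation markers summed to 1276 to 2539 CPM in male and 1868 to 3420 CPM in female tumors, with 1 of 24 called lower in males, and their part was not tested.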

How the data were processed

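Total RNA of 24 tumors was sequenced after ribosomal RNA depletion with a stranded kit. Per the labels and the study's methods, the authors aligned reads with STAR 2.6.0a to GRCm38 and deposited the expected counts per gene that RSEM 1.3.1 estimated. These deposited expected counts, 12.5% of them not whole, were rounded here. Whether strand was used in the counting is not stated. Besides Ercc1 and Ddb1, many members share exon bases with a gene on the opposite strand, among them Brca2, Rad54l, Fancc, Fanci, Mre11a, Rev1 and Ddb2. Pms2 shares exon bases with Rsph10b on the same strand. Gene symbols came from the GENCODE M21 annotation (99.6% of identifiers matched).

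Lines were read from the tumor names in the labels, and subtype, sex and the choice of treated lines from the study. Tests used the quasi-likelihood fit of edgeR 4.0.16 in R 4.3.3, with TMM scaling, the filterByExpr filter, only the groups compared and Benjamini-Hochberg adjustment over all genes tested. A gene was called at an adjusted p under 0.05. Intervals are 95% intervals, and limits of 3 counts cover counting error only. DESeq2 1.42.0, other scaling, filters and left-out tumors were tried as alternatives, and the fits were tested on simulated data. The 3 tumors of a line share a donor, so that p-values measure the spread between tumors of few lines.

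The 44 members and all gene lists were chosen with earlier results of these data known. Values in every tumor are given for the 6 called members with the widest range of line means, for up to 8 called members in each direction between BURP-24BaSq and BURP-16SR, and in other comparisons for up to 5 called members in each direction whose tumors did not overlap. From other lists at most 4 genes are named, and the genes around Ercc1 and Rev3l in BURP-24BaSq were added after their values were seen. The immune markers summed to 202 to 394 CPM in BURP-24BaSq and 163 to 817 CPM in BURP-16SR. Promoter windows came from RefSeq, with none used from the chromosome of Ercc3.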

Additional observations from a re-analysis of the deposited data

How the results depend on the processing

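Alternatives were run for 46 differences of called members. Over 858 pairs of a difference and a setting, 738 kept the call, 120 lost it and 0 reversed. The members called among the 8 lines numbered 33 to 38 with single tumors left out. Leaving out single tumors gave 8 to 16 higher and 2 to 4 lower members for BURP-24BaSq against BURP-16SR, 1 to 2 and 4 to 11 for BURP-16SR against the BaSq lines, 5 to 7 and 1 to 8 for BURP-19NE, and 0 to 2 and 0 for BURP-24BaSq against the other BaSq lines. Leaving out single lines gave 0 to 4 higher and 2 to 6 lower members in males.

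Without a filter on low counts, 3 members were lower in BURP-24BaSq than in BURP-16SR, 2 were lower in BURP-19NE and 1 was higher in males. With at least 10 counts in every tumor, 8 were lower in BURP-19NE and 2 higher in BURP-24BaSq than in the other BaSq lines. DESeq2 called 2 higher in BURP-16SR, 11 lower in BURP-19NE, 3 higher in BURP-24BaSq than in the other BaSq lines, and 4 higher and 6 lower in males. With all 24 tumors in 1 fit, 2 were higher in BURP-16SR, 11 lower in BURP-19NE, and 6 higher and 4 lower in BURP-24BaSq than in the other BaSq lines. With counts summed per line, 0 and 0 differed by sex. With BURP-25BaSq reduced to its first tumor, an alternative chosen after seeing the data, 2 were higher in BURP-24BaSq than in the other BaSq lines and 1 higher in males. Fewer samples enter the left-out fits, and for the other changes the cause was not tested.

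No paired analysis was possible because replicate numbers were given in accession order and the labels tie no tumors of different lines to each other. Depth limits Rad51c most, with 2 counts in BURP-25BaSq replicate 2.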

Other observations

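Polk, which copies past bulky lesions, was the further repair gene with the largest increase in BURP-16SR over the BaSq lines, at a log2 difference of 1.41 (adjusted p = 0.000248, edgeR). Mad2l2, a subunit of polymerase zeta, was higher in both BURP-16SR (log2 0.93) and BURP-19NE (log2 1.01) than in the BaSq tumors that both comparisons share, while its partner Rev3l was higher in BURP-19NE alone of these lines by the test (log2 1.34, against -0.35 and not called in BURP-16SR). The difference between those Rev3l values was not tested. Lig3, a DNA ligase, was lower in BURP-16SR (log2 -0.71), in BURP-19NE (log2 -0.80) and in BURP-24BaSq against the other BaSq lines (log2 -0.64).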
